A study of Mus musculus with 24 samples.

Results

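EGR and NR4A factors are transcription regulators that lymphocytes and myeloid cells make within a short time of a stimulus. Messenger RNA of 7 such genes, Egr1, Egr2, Egr3, Nr4a1, Nr4a2, Nr4a3 and Ier2, was followed in activated immune cells of mice that lack the microRNA miR-155 (KO) and of wild-type (WT) mice. The genes were chosen by name, with earlier results of these data known. All 7 of the 7 symbols were found among the 20673 genes counted in each library. All mice were C57BL/6J, and each of the 8 groups, KO and WT of 4 cell types, held 3 libraries. KO and WT B cells came from spleen, were purified by depletion on CD43 beads, and received IL-4 at 6.5 ng/ml and LPS at 25 ug/ml as activators. KO and WT dendritic cells were CD11c+ spleen cells of mice that had been given B16 melanoma cells making Flt3 ligand, a growth factor that expands dendritic cells, and were activated with GM-CSF at 20 ng/ml and LPS at 100 ng/ml. KO and WT macrophages were drawn from the peritoneum after thioglycollate and activated with 100 ng/ml LPS. KO and WT CD4 T cells were taken from spleen and lymph node, lacked CD25 and CD44, and met beads that bind CD3 and CD28 for activation. No source used here gives the time after activation or the ages of the mice, and each cell type had its own stimulus, so cell type and stimulus cannot be told apart. The 3 libraries of a group are called sequencing replicates, and no separate animals are named, so the p-values reflect how far these libraries differ, which may be technical variation only.

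Egr1, Egr2 and Egr3 encode zinc finger proteins of one family, and the corepressors Nab1 and Nab2 bind them and limit their activity. In T cells Egr2 and Egr3 are known for restraining activation. Nr4a1 (Nur77), Nr4a2 (Nurr1) and Nr4a3 (Nor1) encode orphan nuclear receptors that act without a known natural ligand, so their level is set mainly by how much of each is made. All are immediate early genes: their promoters respond to kinase and calcium signals through factors such as CREB, SRF and MEF2, without new protein synthesis. In T cells NR4A factors are known for their induction by antigen receptor signals and for a role in exhaustion. Ier2 is a small nuclear protein of another family that is induced by the same signals. miR-155 is itself induced on activation of immune cells and lowers messenger RNAs that carry sites matching its seed in their 3′ UTR.

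Gene counts ran from 7428821 to 14219823 per library. Mir155 and its host gene Mir155hg were listed in 0 of the 24 files, and the deleted gene therefore gave no check of the KO label. The labelled cell type was checked on marker lists, given as summed CPM (counts scaled to library size, with TMM factors over all 24 libraries). The 9 B cell markers summed to 3811 ± 165 CPM in KO and 3956 ± 158 CPM in WT B cells, and the 9 T cell markers to 2213 ± 45.9 in KO and 2329 ± 62.2 in WT CD4 T cells. The 13 macrophage markers summed to 15228 ± 976 in KO and 18603 ± 1216 in WT macrophages, and the 11 dendritic cell markers to 16092 ± 413 in KO and 12865 ± 516 in WT dendritic cells (SD, n = 3 each). Macrophage libraries also held 3326 ± 741 CPM in KO and 2555 ± 1702 CPM in WT from 9 neutrophil markers, led by Mmp9, with Ly6g, Cxcr2, Retnlg and Ngp at 0 in all 6 libraries. In bulk samples, fewer cells of a type and less RNA per cell cannot be told apart.

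The mature miRNA is shown because its seed, bases 2 to 8 in capitals, defines the sites searched in the 7 genes (RefSeq, GRCm38.p6, chr16:84714143-84714165, plus strand).
miR-155-5p: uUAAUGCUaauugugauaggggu
In the 3′ UTR of each gene in the GENCODE M21 annotation of GRCm38, a newer build than the mm9 of the count files, sites were found in 1 of the 7 genes, Nr4a3. Its 3′ UTR of 3093 bases held 2, an 8mer at base 2836 and a 7mer-A1 at base 2329, shown in capitals with their flanks. Both lie on the plus strand, the 8mer at chr4:48086188-48086195 and the 7mer-A1 at chr4:48085681-48085687.
Nr4a3 8mer: tgcagaggacaAGCATTAAtgcaggtgatt
Nr4a3 7mer-A1: gtagtactttgGCATTAAtttgttgagct
Of 19436 genes with a 3′ UTR, 3.11% had an 8mer as their best site and 12.8% an 8mer or a 7mer. The 3′ UTRs of Egr1, Egr2, Egr3, Nr4a1, Nr4a2 and Ier2, between 543 and 2645 bases long, held none of these sites and no 6mer. A match is a description of the letters, not evidence of binding.

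Promoters are shown for the 3 NR4A genes, since 2 of them moved together in dendritic cells (RefSeq, GRCm38.p6, each written on the strand of its gene, from 250 bases before the start to 50 after it). Capitals mark, on either strand, the letters TGACG that form the core of the cAMP response element bound by CREB, the TATA box letters TATAAA, and the EGR site letters GCGGGGGCG. The Nr4a1 promoter lies at chr15:101266596-101266895 on the plus strand, that of Nr4a2 at chr2:57123954-57124253 on the minus strand and that of Nr4a3 at chr4:48045055-48045354 on the plus strand.
Nr4a1: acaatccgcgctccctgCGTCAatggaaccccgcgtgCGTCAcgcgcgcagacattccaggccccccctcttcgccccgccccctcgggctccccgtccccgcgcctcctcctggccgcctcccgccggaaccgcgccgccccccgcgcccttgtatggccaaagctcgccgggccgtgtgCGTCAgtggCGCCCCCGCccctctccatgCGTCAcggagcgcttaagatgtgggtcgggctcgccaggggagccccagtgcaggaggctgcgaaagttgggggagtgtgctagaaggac
Nr4a2: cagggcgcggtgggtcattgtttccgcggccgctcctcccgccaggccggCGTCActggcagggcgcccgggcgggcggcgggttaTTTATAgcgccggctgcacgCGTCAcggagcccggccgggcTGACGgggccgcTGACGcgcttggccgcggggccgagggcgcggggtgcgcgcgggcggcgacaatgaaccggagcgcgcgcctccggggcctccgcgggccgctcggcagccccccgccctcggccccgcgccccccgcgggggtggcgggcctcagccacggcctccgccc
Nr4a3: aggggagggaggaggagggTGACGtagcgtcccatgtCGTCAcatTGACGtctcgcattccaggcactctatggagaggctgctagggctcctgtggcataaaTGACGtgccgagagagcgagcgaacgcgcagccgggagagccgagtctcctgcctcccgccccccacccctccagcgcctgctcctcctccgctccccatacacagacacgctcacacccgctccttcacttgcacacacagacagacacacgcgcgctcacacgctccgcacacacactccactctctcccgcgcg
The core TGACG occurred 4 times in each of the 3 promoters, while 20.8% of 32851 promoters in the table held it at least 1 time. In Nr4a3 the 4 matches stood 231, 213, 205 and 147 bases before the start, and in Nr4a2 they stood 200, 144, 123 and 111 bases before it. In Nr4a1 they stood 233, 213, 69 and 40 bases before the start, and an EGR site of the G form, present in 2.91% of promoters, stood 60 bases before it. Nr4a2 alone of the 3 held the TATA box letters, on the strand opposite to that of the gene, 164 bases before the start, as did 13.6% of promoters. The whole element TGACGTCA, which contains the core and is present in 1.79% of promoters, was in none of the 3, nor was the NR4A site AAAGGTCA (1.51%) or the EGR site GCGTGGGCG (0.612%). Of the 7 genes, 4 were matched in the promoter table, these 3 and Egr2. Of the 5 promoters listed for Egr2, 3 held TGACG, with 2 matches each, 4 held a CArG box, the site of SRF (1.63% of promoters), and none held the TATA box, NR4A or EGR letters. In the 3 with TGACG, these matches and the CArG box kept the same distances from each other. They read as 1 stretch seen from shifted starts and do not count as separate sites.

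In dendritic cells, Nr4a3 and Nr4a2 were higher in KO. Of the 6 members tested there, 2 were called, both up, beside 21.6% of all 10536 genes tested in dendritic cells, so the number called is not in itself unusual for these libraries (edgeR quasi-likelihood test, where called means an adjusted p under 0.05 after adjustment over every tested gene). Nr4a3 stood at 665, 683 and 632 CPM in the 3 KO libraries, against 259, 303 and 267 CPM in the 3 WT libraries. Every KO library lay above every WT library, by more than the whole spread of either group. The fold was 2.39 (log2 fold change 1.26, SE 0.08, adjusted p = 1.3e-05), and of the 24 effects tested over the 7 genes and 4 cell types it was the largest. Leaving out any 1 of the 6 libraries gave log2 fold changes between 1.20 and 1.32, all called.

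Nr4a2 stood at 310, 258 and 242 CPM in KO dendritic cells, against 127, 188 and 137 CPM in WT dendritic cells. The groups did not overlap, and WT replicate 2 was the closest to the KO libraries. The fold was 1.79 (log2 fold change 0.84, SE 0.15, edgeR adjusted p = 0.0037). Without WT replicate 1 the log2 fold change was 0.72 and the call was lost (adjusted p = 0.068).

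The third NR4A gene, Nr4a1, was read far less in dendritic cells, with 104, 52 and 43 reads in KO against 47, 46 and 47 reads in WT. KO replicate 1 gave most of the difference, and the other KO libraries were close to WT. The log2 fold change was 0.67 (SE 0.28, edgeR adjusted p = 0.11) and fell to 0.23 without KO replicate 1, while in the fit of all 24 libraries Nr4a1 was called (0.68, adjusted p = 0.040).

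The EGR genes were near the lower end of detection in dendritic cells. Egr1 had 19, 18 and 25 reads in KO and 37, 12 and 22 reads in WT, with overlapping groups (log2 fold change -0.01, SE 0.37, adjusted p = 0.98). Egr2 had 7, 18 and 17 reads in KO and 14, 15 and 16 reads in WT, also overlapping (0.08, SE 0.37, adjusted p = 0.91). The Egr1 reads of the WT libraries alone ran from 12 to 37. Egr3 did not pass the filter on low counts, with 5, 9 and 5 reads in KO and 0, 2 and 1 reads in WT. The groups of Egr3 did not overlap, and the summed counts, 19 in KO and 3 in WT, gave a ratio of 7.16 with an exact 95% interval of 2.11 to 37.8 that covers counting error only. Ier2 stood at 23.9 ± 2.56 CPM in KO and 27.7 ± 1.84 CPM in WT dendritic cells (log2 fold change -0.21, SE 0.11, adjusted p = 0.20).

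Other features of the dendritic cell libraries moved with genotype. Of 15 tested heat shock genes, 6 were called up, 1 was called down and 8 were not called, beside 21.6% of all genes. Hspa1a, an inducible heat shock chaperone singled out here after its values were seen, stood at 157, 16.03 and 16.6 CPM in KO against 1.07, 0.72 and 0.62 CPM in WT, with KO replicate 1 far above the others. Its near-identical copy Hspa1b stood at 149, 15.6 and 17.9 CPM in KO against 0.36, 1.21 and 0.62 CPM in WT. Neither was called (edgeR adjusted p = 0.071 for Hspa1a and 0.067 for Hspa1b). KO replicate 1 was also the library with the highest Nr4a1 and Nr4a2, and without it Nr4a3 (1.25, adjusted p = 0.00029) and Nr4a2 (0.73, adjusted p = 0.017) were both still called. KO replicates 2 and 3 still held more Hspa1a than any WT library, at 16.03 and 16.6 CPM. Leaving out KO replicate 1 therefore does not separate heat shock from genotype. Of the marker lists, summed macrophage markers were 90.0 to 100.1 CPM in KO and 110 to 251 CPM in WT dendritic cells, with Vsig4 at 0 in all 6 libraries, and summed dendritic cell markers were 15637 to 16442 CPM in KO and 12550 to 13461 CPM in WT, with 0 of 11 markers at 0. Fscn1, an actin-bundling protein of mature dendritic cells, made up most of the dendritic cell difference, at 8441 CPM in KO and 5313 CPM in WT on average. The chemokine Ccl22 went the other way, at 640 CPM in KO and 1089 CPM in WT, while Flt3 was at 1582 in KO and 1490 in WT. The 9 B cell markers summed to 16.6 to 28.1 CPM in KO and 8.06 to 15.4 CPM in WT dendritic cells, with none at 0 in all 6 libraries. The 7 mast cell markers, nearly all Kit, summed to 441 to 499 in KO and 523 to 646 in WT, with Mcpt8 and Ms4a2 at 0. The sums of 9 neutrophil markers (1.99 to 2.70 in KO, 3.5 to 13.8 in WT, with Ly6g, Retnlg and Cxcr2 at 0), 8 erythroid and platelet markers (7.81 to 8.36 in KO, 9.78 to 14.6 in WT, with 4 at 0) and 8 stromal markers (0.79 to 1.28 in KO, 2.84 to 3.61 in WT, with 3 at 0) were low and did not overlap either. Sums of plasma cell, CD8 T and NK cell, plasmacytoid dendritic cell, eosinophil and melanoma markers overlapped between KO and WT dendritic cells. In every cell type, marker sums of 3 against 3 libraries that do not overlap can reach no exact permutation p below 0.1. The 9 T cell markers, from the other cell type in which Nr4a2 and Nr4a3 were high, summed to 6.00 ± 1.40 CPM in KO and 5.41 ± 2.33 CPM in WT dendritic cells. The part of heat shock and of all these marker sums in the NR4A result was not tested.

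**Figure D1:**
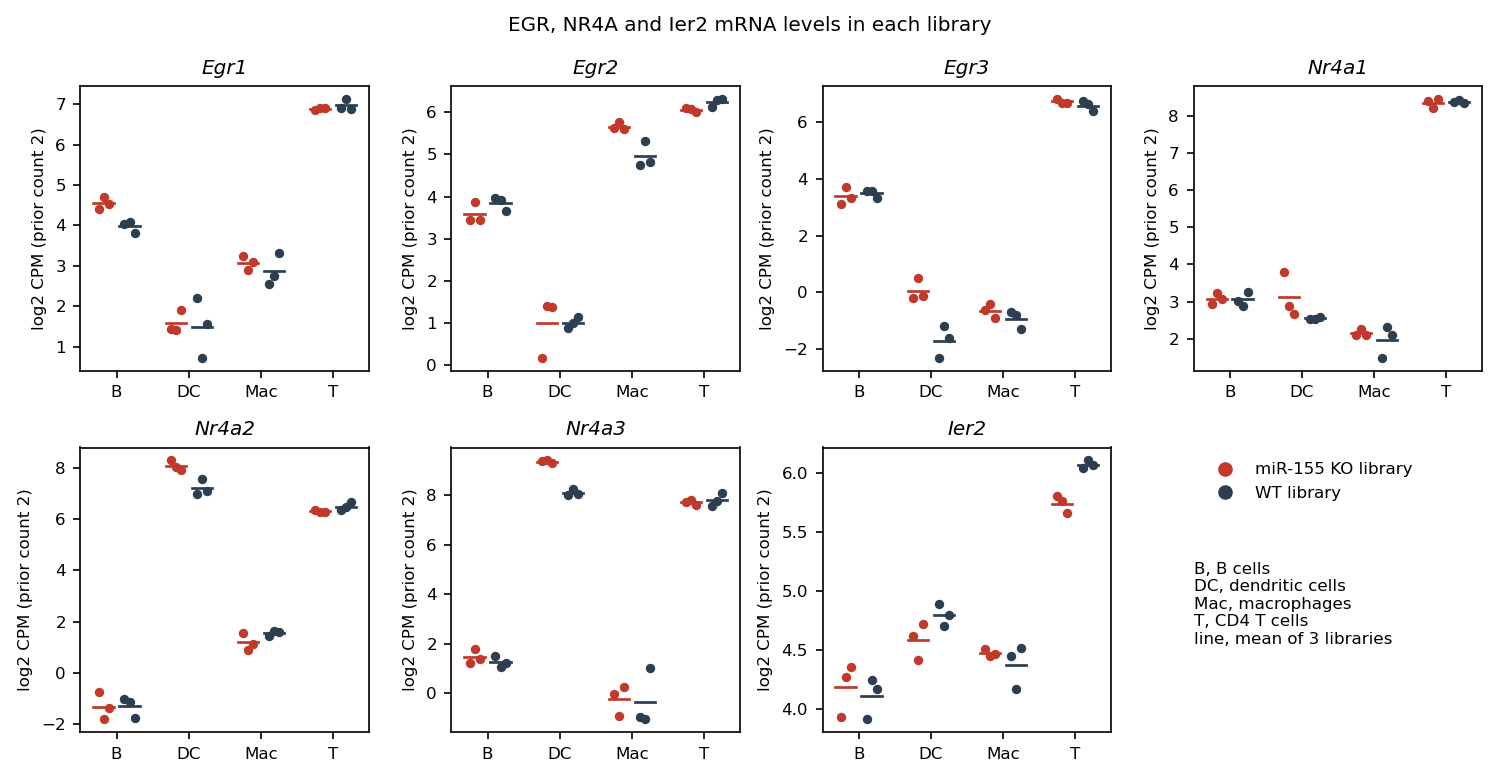
Level of each gene in each of the 24 libraries, as log2 CPM with a prior count of 2, by cell type on the x axis, with KO libraries in red left of WT libraries in blue and a line at the mean of 3 libraries. The y axis differs between panels. In dendritic cells Nr4a3 averaged 660 CPM in KO and 276 CPM in WT, and T cells gave the highest level of Egr1, Egr2, Egr3, Nr4a1 and Ier2.

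In B cells, Egr1 was higher in KO. It was the only one called of 6 members tested, beside 3.2% of all 10151 genes tested in B cells. Egr1 stood at 21.1, 25.7 and 22.9 CPM in KO B cells, against 16.3, 16.7 and 13.8 CPM in WT B cells, and the groups did not overlap. The fold was 1.48 (log2 fold change 0.57, SE 0.11, edgeR adjusted p = 0.0063). Without KO replicate 2 it was 0.49 and not called (adjusted p = 0.053), and in the fit of all 24 libraries, which shares 1 estimate of spread over the cell types, the adjusted p was 0.16.

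The other members did not pass the test in B cells. Egr2 averaged 11.9 ± 2.16 CPM in KO and 14.3 ± 1.67 CPM in WT (log2 fold change -0.26, SE 0.14, adjusted p = 0.36), and Egr3 averaged 10.4 ± 2.23 in KO and 11.1 ± 1.10 in WT. Nr4a1 averaged 8.29 ± 0.82 CPM in KO and 8.20 ± 1.15 CPM in WT, and Ier2 averaged 18.1 ± 2.74 in KO and 17.1 ± 2.03 in WT. Nr4a3 was low, with 26 to 39 reads in KO libraries and 22 to 27 reads in WT libraries. Nr4a2 was not tested, with 1 to 5 reads in KO and 1 to 3 reads in WT. Of the summed level of the 3 EGR genes per kb of coding sequence, Egr1 took 45.7 ± 2.39% in KO B cells and 33.2 ± 0.42% in WT B cells (SD, n = 3 each). Beside this, summed markers of dendritic cells were 199 to 214 CPM in KO and 173 to 184 CPM in WT B cells, with Clec9a at 0, and those of T cells were 26.4 to 32.2 CPM in KO and 41.4 to 49.5 CPM in WT, with Cd3g and Trat1 at 0. The T cell sum was nearly all Cd2, at 28.7 CPM in KO and 45.02 CPM in WT, and the dendritic cell sum differed mainly by Ccl22, at 59.2 CPM in KO and 25.5 CPM in WT, while Dpp4 stood at 58.4 in KO and 66.0 in WT. The part of these in the Egr1 result was not tested.

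In macrophages no member was called of 5 tested by the main edgeR test, which had no replicate block, beside 0.885% of all 10730 genes tested in macrophages. At an unadjusted p under 0.05, 1 of the 5 passed, Egr2, but no share of all genes at that level is given here to set beside it. Egr2, which is the main EGR gene of these cells, stood at 49.2, 54.0 and 48.3 CPM in KO, against 26.9, 39.7 and 28.05 CPM in WT. The groups did not overlap, and WT replicate 2 was the highest of the WT libraries. The fold was 1.62 (log2 fold change 0.70, SE 0.16, edgeR adjusted p = 0.099). Same-numbered KO and WT macrophage libraries deviated together, and Egr2 was called when replicate number entered the fit as a block (0.72, adjusted p = 0.043). It was also called by DESeq2 (adjusted p = 0.016) and in the fit of all 24 libraries (adjusted p = 0.0026), and in the edgeR test without WT replicate 2 (adjusted p = 0.034) or WT replicate 3 (adjusted p = 0.029).

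Egr1 in macrophages was at 8.28 ± 1.0 CPM in KO and 7.32 ± 2.09 CPM in WT, and Nr4a1 was at 4.23 ± 0.29 in KO and 3.82 ± 1.12 in WT. Nr4a2 was at 2.13 ± 0.56 CPM in KO and 2.75 ± 0.23 CPM in WT (log2 fold change -0.35, SE 0.26, adjusted p = 0.52). Ier2 was at 22.0 ± 0.48 CPM in KO and 20.7 ± 2.54 CPM in WT. Egr3 and Nr4a3 were not tested, with 3 to 5 and 3 to 9 reads in KO libraries and 2 to 4 and 3 to 18 reads in WT libraries. Summed macrophage markers were 14273 to 16223 CPM in KO and 17305 to 19716 CPM in WT macrophages, with none at 0 in all 6 libraries. The complement genes made up most of that difference, with C1qa at 693 CPM in KO and 1892 in WT, C1qb at 434 in KO and 1497 in WT and C1qc at 298 in KO and 1192 in WT, whereas Csf1r was at 4168 in KO and 3812 in WT. Summed dendritic cell markers, nearly all Itgax, were 354 to 438 CPM in KO and 236 to 324 CPM in WT, with Xcr1 at 0. Plasmacytoid dendritic cell markers, led by Bst2, were 257 to 285 in KO and 293 to 460 in WT, with none at 0, and erythroid and platelet markers, nearly all Pf4, were 4452 to 5313 in KO and 5475 to 5882 in WT, with 4 of 8 at 0. Stromal markers, led by Col1a1, overlapped, at 366 to 826 CPM in KO and 164 to 416 CPM in WT, with none of the 8 at 0 in all 6 libraries. The part of these in the Egr2 values was not tested.

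In CD4 T cells, Ier2 was lower in KO. It was the only one called of 7 members tested, beside 2.15% of all 10396 genes tested in T cells. Ier2 stood at 55.6, 54.0 and 50.3 CPM in KO T cells, against 65.6, 68.7 and 67.0 CPM in WT T cells, and the groups did not overlap. The change was a fall of 0.33 on the log2 scale (log2 fold change -0.33, SE 0.06, edgeR adjusted p = 0.013). The call was lost without KO replicate 1 (adjusted p = 0.055), KO replicate 2 (0.052), KO replicate 3 (0.082) or WT replicate 2 (0.093), while the log2 fold change stayed between -0.37 and -0.29. It was also lost in the fit of all 24 libraries (adjusted p = 0.19).

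The EGR and NR4A genes, which T cells expressed at high levels, were close between genotypes. Nr4a1 was at 336, 295 and 350 CPM in KO T cells, against 333, 346 and 324 CPM in WT T cells (log2 fold change -0.03, SE 0.06, adjusted p = 0.84). Nr4a3 averaged 211 ± 13.96 CPM in KO and 229 ± 45.2 CPM in WT (-0.12, SE 0.16, adjusted p = 0.77), and Nr4a2 averaged 78.5 ± 1.84 in KO and 89.1 ± 9.71 in WT (-0.19, SE 0.07, adjusted p = 0.20). Egr2 was at 68.4, 67.1 and 64.4 CPM in KO T cells, against 69.6, 78.3 and 79.5 CPM in WT T cells. The Egr2 groups did not overlap, though the lowest WT library was close to the KO libraries, and it was not called (-0.19, SE 0.06, adjusted p = 0.13). Egr1 averaged 118 ± 2.21 CPM in KO and 126 ± 12.2 CPM in WT (-0.09, SE 0.06), and Egr3 averaged 106 ± 5.72 in KO and 95.6 ± 11.6 in WT (0.14, SE 0.08). Summed T cell markers were 2167 to 2259 CPM in KO and 2265 to 2389 CPM in WT T cells, with none at 0. Summed dendritic cell markers, mostly Ccr7, which T cells also express, were 422 to 503 in KO and 360 to 417 in WT T cells, with Xcr1, Clec9a and Cd209a at 0, and stromal markers were 1.12 to 1.3 in KO and 0.62 to 0.80 in WT, with 4 of 8 at 0. The part of these in the Ier2 result was not tested.

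**Figure D2:**
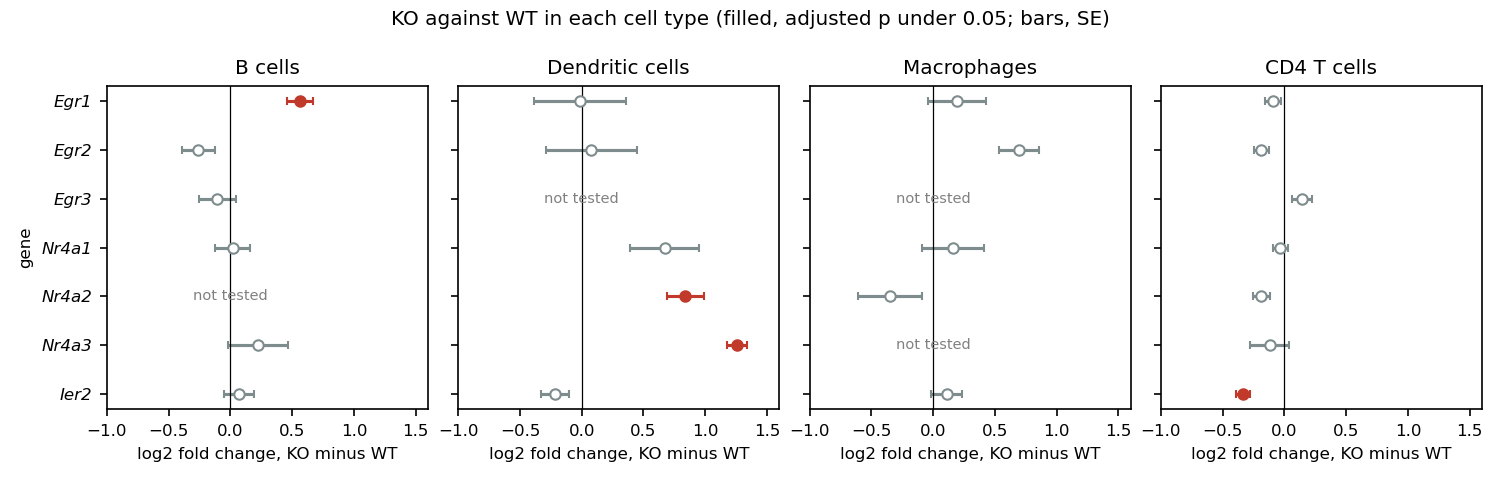
KO effect on each gene in each cell type, as the log2 fold change (KO minus WT) on the x axis with its standard error, filled red where the edgeR adjusted p was under 0.05. Filled points stand for Egr1 in B cells (0.57), Nr4a2 (0.84) and Nr4a3 (1.26) in dendritic cells and Ier2 in T cells (-0.33), and the other effects, drawn open, include Egr2 in macrophages (0.70). The fits shown had no replicate block, with which Egr2 in macrophages was called.

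The title of the series asks about cellular context, so the KO effects of the cell types were set against each other in a joint fit of the 24 libraries. Over the 4 cell types together, 4 of the 7 members were called, beside 12.6% of all 12249 genes tested. These were Nr4a3 (adjusted p = 0.0018), Nr4a2 (0.0021), Egr2 (0.010) and Egr3 (0.035). Egr1 (adjusted p = 0.16), Nr4a1 (0.25) and Ier2 (0.12) were not called, so the call of Egr1 in B cells and that of Ier2 in T cells were not shown to be particular to those cells. Of the 29 alternatives, Egr1 was called in 1, without macrophage WT replicate 3 (adjusted p = 0.020), and Ier2 in 3, without macrophage WT replicate 3 (0.039), without B cell KO replicate 1 (0.044) and with the replicate block (0.049). The Egr3 call rests on the low counts of dendritic cells and was lost in 8 of 29 alternatives, with the highest adjusted p, 0.13, without dendritic cell KO replicate 2. Egr3 failed the low-count filter in the separate fits of dendritic cells and of macrophages, and entered this fit through its reads in B and T cells. Nr4a3, Nr4a2 and Egr2 were called in all 29, each with 1 estimate of spread shared over the cell types. For KO against WT in macrophages, the edgeR fit with that shared spread called 1755 genes, against 95 in the separate fit. In the separate fit Egr2 was not called (edgeR adjusted p = 0.099), so the 29 alternatives do not cover this limit.

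Pairs of cell types show where these differences lay. The log2 KO effect on Nr4a3 was 1.37 higher in dendritic cells than in T cells (SE 0.22, edgeR adjusted p = 0.00066), the other cell type with a high level of it. Against macrophages (1.44, SE 0.62, adjusted p = 0.16) and B cells (1.03, SE 0.37, adjusted p = 0.12), where Nr4a3 had few reads, the difference was not called. The effect on Nr4a2 was 1.02 higher in dendritic cells than in T cells (SE 0.18, adjusted p = 0.0012) and 1.21 higher than in macrophages (SE 0.31, adjusted p = 0.016). The effect on Egr2 was 0.94 higher in macrophages than in B cells (SE 0.21, adjusted p = 0.020) and 0.86 higher than in T cells (SE 0.19, adjusted p = 0.012). The fitted effect on Egr3 was called higher in dendritic cells than in B cells (adjusted p = 0.014) and in T cells (adjusted p = 0.022). Both calls carry the limit that Egr3 passed the filter through B and T cells only, and both enter the counts per pair below. Counted per pair, 3 members were called between dendritic and T cells, beside 6.1% of genes, and 1 each between dendritic cells and macrophages (9.27%), dendritic and B cells (5.63%), macrophages and B cells (2.67%) and macrophages and T cells (3.63%). Between B and T cells 0 of 7 were called by the edgeR test, beside 0.0571% of genes, and 2 had an unadjusted p under 0.05, Egr1 and Ier2. That share of genes is for adjusted p, and none is given for unadjusted p.

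Levels of the 7 genes were also compared between cell types. In WT cells, 6 of 7 members were called between dendritic cells and macrophages (80.4% of all 12249 genes tested), 7 of 7 between dendritic and B cells (80.2%), and 6 of 7 between dendritic and T cells (81.6%). All 7 were called between macrophages and B cells (82.4%), between macrophages and T cells (83.8%) and between B cells and T cells (56.2%). With most genes called in each pair, the counts of members say little, and sizes are given instead.

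Egr1 in WT cells was highest in T cells at 126 CPM, then B cells at 15.6, macrophages at 7.32 and dendritic cells at 2.86 CPM, and all neighbours in this order differed by the test. Egr2 had another order, with T cells at 75.8 CPM, macrophages at 31.5, B cells at 14.3 and dendritic cells at 1.82 CPM, and all neighbours differed. Its level was 1.14 higher on the log2 scale in macrophages than in B cells (SE 0.15, adjusted p = 3.1e-07), while Egr1 was 1.10 lower there (log2 difference -1.10, SE 0.19, adjusted p = 1.1e-05). Egr3 was at 95.6 CPM in T cells and 11.1 CPM in B cells. It was at 0.33 CPM in macrophages and 0.12 CPM in dendritic cells, which were not called different (adjusted p = 0.12).

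Nr4a1 was high only in T cells among the 4 cell types, at 334 ± 11.4 CPM in WT, and stood at 8.20 CPM in B cells, 5.66 in dendritic cells and 3.82 in macrophages. Its level was lower in dendritic cells than in T cells (log2 difference -5.88, SE 0.19, adjusted p = 4.2e-18). The order of dendritic cells below B cells (log2 difference -0.53, adjusted p = 0.032) did not hold in KO, where the difference was 0.13 (adjusted p = 0.57). The call between dendritic cells and macrophages (0.56, adjusted p = 0.046) was lost when the 6 WT libraries of the pair were fitted alone (adjusted p = 0.079).

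Nr4a2 was highest in WT dendritic cells at 151 CPM, then T cells at 89.1, macrophages at 2.75 and B cells at 0.21 CPM, and all neighbours differed. Nr4a3 was at 276 CPM in WT dendritic cells and 229 CPM in WT T cells, and these did not differ beyond their spread (log2 difference 0.27, SE 0.16, adjusted p = 0.11), though with DESeq2 size factors the pair was called (0.35, adjusted p = 0.044). In KO the log2 level of Nr4a3 was 1.64 higher in dendritic cells than in T cells (SE 0.16, adjusted p = 2.8e-09). B cells, at 2.24 CPM, and macrophages, at 0.81 CPM, were far below, and the log2 level in macrophages was 1.47 lower than in B cells (log2 difference -1.47, SE 0.44, adjusted p = 0.0042). In WT macrophages 18 of the 24 Nr4a3 reads came from replicate 3, and with the 6 WT libraries of that pair alone the adjusted p was 0.065.

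Ier2 varied least among the 7. In WT, T cells had 67.1 CPM of it, dendritic cells 27.7, macrophages 20.7 and B cells 17.1 CPM. The neighbours differed by the test, but the call between macrophages and B cells (log2 difference 0.27, adjusted p = 0.038) was lost with upper quartile factors (0.17, adjusted p = 0.19), and that between dendritic cells and macrophages (0.42, adjusted p = 0.0018) did not hold in KO (0.11, adjusted p = 0.37). The SD of its log2 CPM over the 24 libraries was 0.69, against 1.99 to 3.95 for the other members.

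Levels of different genes were compared per kb of coding sequence, the part of the gene on which reads were counted. The 3 EGR genes together reached 212 ± 4.65 CPM per kb in KO and 215 ± 13.3 in WT T cells, and 3.90 ± 0.96 in KO and 3.18 ± 0.76 in WT dendritic cells. The 3 NR4A genes, unlike the EGR genes, were high in dendritic cells, at 506 ± 30.2 CPM per kb in KO and 234 ± 30.7 in WT. In T cells the NR4A genes reached 338 ± 9.86 CPM per kb in KO and 357 ± 26.7 in WT. Dendritic cells thus held much NR4A messenger RNA and little EGR messenger RNA, while T cells held both.

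The shares of the members in each family also varied between cell types. In macrophages Egr2 made up 86.5 ± 1.75% of the summed EGR level per kb in KO and 81.8 ± 5.22% in WT, whereas in T cells Egr3 took 42.9 ± 1.41% in KO and 38.3 ± 3.49% in WT and Egr1 took 34.8 ± 1.38% in KO and 36.6 ± 1.76% in WT, so that in WT T cells neither led beyond the spread. Of the summed NR4A level per kb, Nr4a3 took 69.4 ± 2.76% in KO and 63.0 ± 2.78% in WT dendritic cells, Nr4a2 took 29.7 ± 2.37% in KO and 35.7 ± 2.96% in WT, and Nr4a1 took 0.97 ± 0.40% in KO and 1.36 ± 0.18% in WT. In T cells Nr4a1 led, with 53.7 ± 3.32% in KO and 52.2 ± 4.71% in WT, and in B cells it took 75.3 ± 1.5% in KO and 77.5 ± 3.87% in WT of a much lower total, 6.11 ± 0.69 CPM per kb in KO and 5.86 ± 0.65 in WT (SD, n = 3 throughout).

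**Figure D3:**
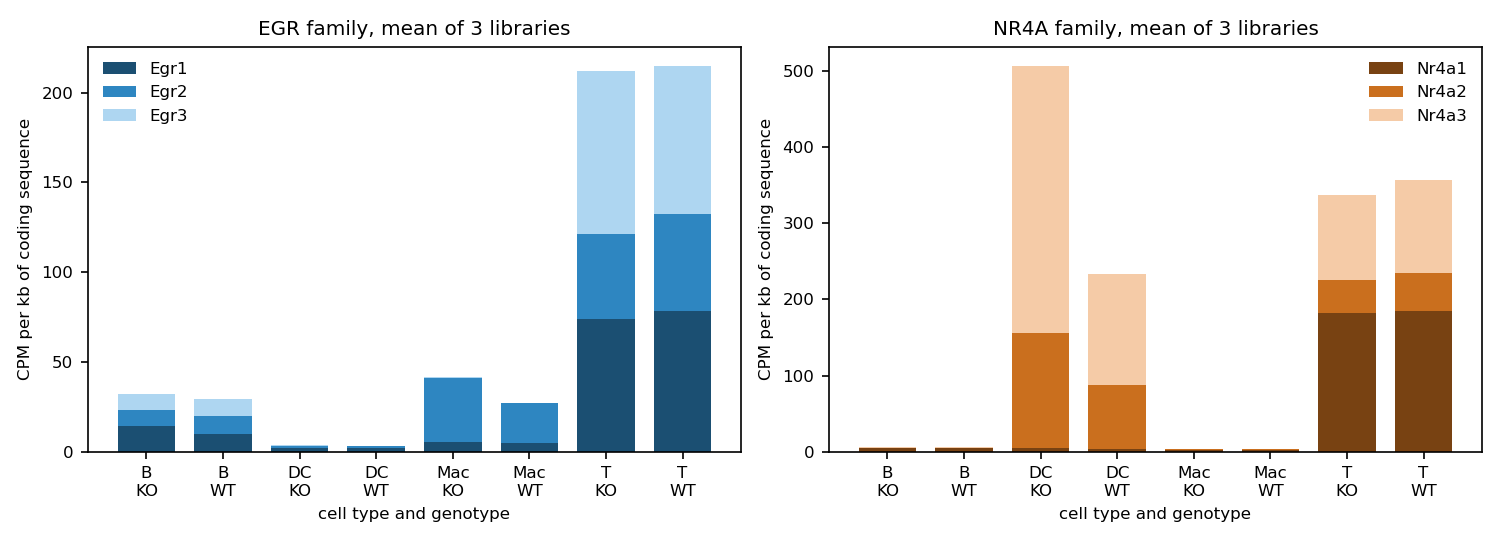
Summed level of the EGR genes (left) and NR4A genes (right) in each group, as CPM per kb of coding sequence on the y axis, with each bar the mean of 3 libraries split by gene and KO left of WT for each cell type. The NR4A bar of dendritic cells reaches 506 in KO and 234 in WT, and is made mostly of Nr4a3, while the EGR bars of the same cells stay at 3.90 in KO and 3.18 in WT.

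The pattern over all 24 libraries was also compared between genes, by the root mean square difference of log2 CPM after each gene was centred on its own mean. Among the 7, the closest were Egr1 and Nr4a1 (1.28), Egr1 and Egr2 (1.35), Egr1 and Egr3 (1.52), Egr3 and Nr4a1 (1.59), Egr1 and Ier2 (1.61) and Nr4a2 and Nr4a3 (1.65), and the farthest were Egr2 and Nr4a3 (5.01). Thus Nr4a1 was nearer to Egr1 than to Nr4a3 (3.32), its relative by sequence. Among 9662 other genes with a mean of at least 5 CPM, the nearest to Egr1 were Tmem194 (0.36) and Ciart (0.55), to Egr3 Slc2a3 (0.56), a glucose transporter, and Lipg (0.77), a lipase, and to Nr4a1 Ccdc64 (0.60) and Crtam (0.67), a surface receptor of activated T cells. The nearest to Egr2 were Nab2 (0.47), the EGR corepressor, and Synj2 (0.56).

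Nab2 stood at 172 ± 10.1 CPM in KO and 194 ± 7.06 in WT T cells, at 75.6 ± 4.0 in KO and 68.9 ± 5.44 in WT macrophages, at 18.1 ± 1.35 in KO and 20.5 ± 1.08 in WT B cells and at 2.77 ± 0.58 in KO and 3.6 ± 0.51 in WT dendritic cells, the same order of cell types as Egr2. The nearest to Nr4a2 were Rgs1 (0.81), a regulator of G protein signals, and Il12rb2 (1.18), a chain of the IL-12 receptor. The nearest to Nr4a3 were Pdcd1 (0.76), which encodes the inhibitory receptor PD-1, and Tcf7 (0.77), a transcription factor best known in T cells. In dendritic cells Tcf7 was at 226 ± 9.77 CPM in KO and 123 ± 14.1 CPM in WT (log2 fold change 0.88, edgeR adjusted p = 0.00014). Pdcd1 was at 72.5 ± 6.20 CPM in KO and 77.6 ± 8.95 CPM in WT (-0.10, adjusted p = 0.52). The nearest to Ier2 were Rasa1 (0.21) and Polk (0.23). The likeness values describe the same 24 libraries of 4 cell types throughout and carry no test. Genes such as Nab2 and Tcf7 were picked for likeness over these libraries. An order of cell types or a KO direction shared with a member is favoured by that choice and is no independent result.

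Genes around these factors were counted in lists drawn from general knowledge, but with earlier results of these data known. The shares called are therefore a description and not an independent test. Of all genes tested, 21.6% were called in dendritic cells, 3.2% in B cells and 2.15% in T cells. In dendritic cells the shares called were 38.5% of kinases and phosphatases, 21.1% of transcription factors, 38.5% of corepressors and partners, 34.3% of other immediate early genes, 42.9% of NR4A targets, 40.0% of EGR targets and 46.7% of heat shock genes, so that of the transcription factors is at the background. In dendritic cells, of 26 tested upstream kinases and phosphatases 8 were called up and 2 down, and the list median log2 fold change was 0.01, against -0.01 over all genes tested. Rps6ka5 (MSK1), a kinase that phosphorylates CREB, stood at 82.8 ± 4.50 CPM in KO and 29.4 ± 0.87 CPM in WT dendritic cells (log2 fold change 1.49, SE 0.08, adjusted p = 5.2e-06). It was also called up in B cells (0.83, SE 0.13, adjusted p = 0.0018) and in T cells (0.72, SE 0.15, adjusted p = 0.030). Dusp5, a phosphatase that acts on ERK, stood at 869 ± 14.4 CPM in KO and 607 ± 34.0 CPM in WT dendritic cells (0.52, adjusted p = 0.00080). In B cells 3 kinases of 26 tested were called up and 0 down, among them Rps6ka3 (0.42, adjusted p = 0.021), and in T cells 1 of 29.

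Of 19 upstream transcription factors tested in dendritic cells, 2 were called up and 2 down, with a list median of 0.20. Mef2a stood at 112 ± 3.52 CPM in KO and 70.0 ± 13.2 CPM in WT (0.67, adjusted p = 0.0032), and Nfatc2 at 4.29 ± 0.21 in KO and 9.42 ± 1.10 in WT (-1.13, adjusted p = 0.0012). Of 13 corepressors and partners, 4 were called up and 1 down in dendritic cells, with a median of 0.13. Rxrb, a retinoid receptor of the family with which Nr4a1 and Nr4a2 can pair, was up (0.45, adjusted p = 0.0025), as was Rcor1, a corepressor (0.78, adjusted p = 0.0048). Rcor1 was also the only one called of the 13 in B cells (0.45, adjusted p = 0.044), and not by DESeq2 (adjusted p = 0.062). Of the 3 family relatives tested in dendritic cells, Ier3 was called down by edgeR (-0.30, adjusted p = 0.031) and not by DESeq2 (adjusted p = 0.11).

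Other immediate early genes did not move one way in dendritic cells, where 7 of 35 tested were called up and 5 down and the median was 0.05. Gadd45b (0.60, adjusted p = 0.00037), induced by stress and NF-kB signals, and Zfp36 (0.54, adjusted p = 0.0010), which promotes decay of cytokine messenger RNA, had the smallest p and were both up. In B cells 2 of 31 were called up and 0 down, Trib1 (1.31, adjusted p = 0.039) and Myc (0.24, adjusted p = 0.046), of which DESeq2 did not call Trib1 (adjusted p = 0.19). In T cells 2 of 40 were called down and 0 up, the kinases Plk2 (-0.59, adjusted p = 0.011) and Plk3 (-0.38, adjusted p = 0.048), of which DESeq2 did not call Plk3 (adjusted p = 0.065).

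Genes reported elsewhere as targets were also mixed in dendritic cells. Of 14 reported NR4A targets tested, 3 were called up and 3 down (median 0.14), with Batf at 3.26 ± 0.81 CPM in KO and 8.41 ± 1.04 CPM in WT (-1.37, adjusted p = 0.0016) and Entpd1 (CD39) at 4.75 ± 1.93 in KO and 11.7 ± 2.55 in WT (-1.29, adjusted p = 0.0069). In T cells 1 of 19 was called, Ets1, up (0.32, adjusted p = 0.0027), and in B cells 0 of 17 (2 at an unadjusted p under 0.05, 0 by DESeq2). Of 20 reported EGR targets in dendritic cells, 4 were called up and 4 down (median 0.02), with the adhesion receptor Cd44 down (-1.36, adjusted p = 0.00048) and the ubiquitin ligase Cblb up (0.59, adjusted p = 0.0011). In B cells, where Egr1 was higher, 2 of 17 reported EGR targets were called down and 0 up, Sh2d2a (-0.45, adjusted p = 0.026) and Dgka (-0.27, adjusted p = 0.045). DESeq2 called 0 of the 17, with adjusted p = 0.077 for Sh2d2a and 0.074 for Dgka. Heat shock genes in dendritic cells had a median of 0.33, with Bag3 (0.77, adjusted p = 0.00031) and Dnajb1 (0.48, adjusted p = 0.0029) called up, and 0 of 13 were called in B cells and 0 of 13 in T cells. In macrophages the edgeR test called 0 of the 148 list entries tested, of which 27 had an unadjusted p under 0.05 and 8 were called by DESeq2. In B cells 2 heat shock genes and in T cells 5 had an unadjusted p under 0.05, and DESeq2 called 0 of them in B cells and 1 in T cells. No share of all genes is given beside these unadjusted counts, so they cannot be read against a background.

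**Figure D4:**
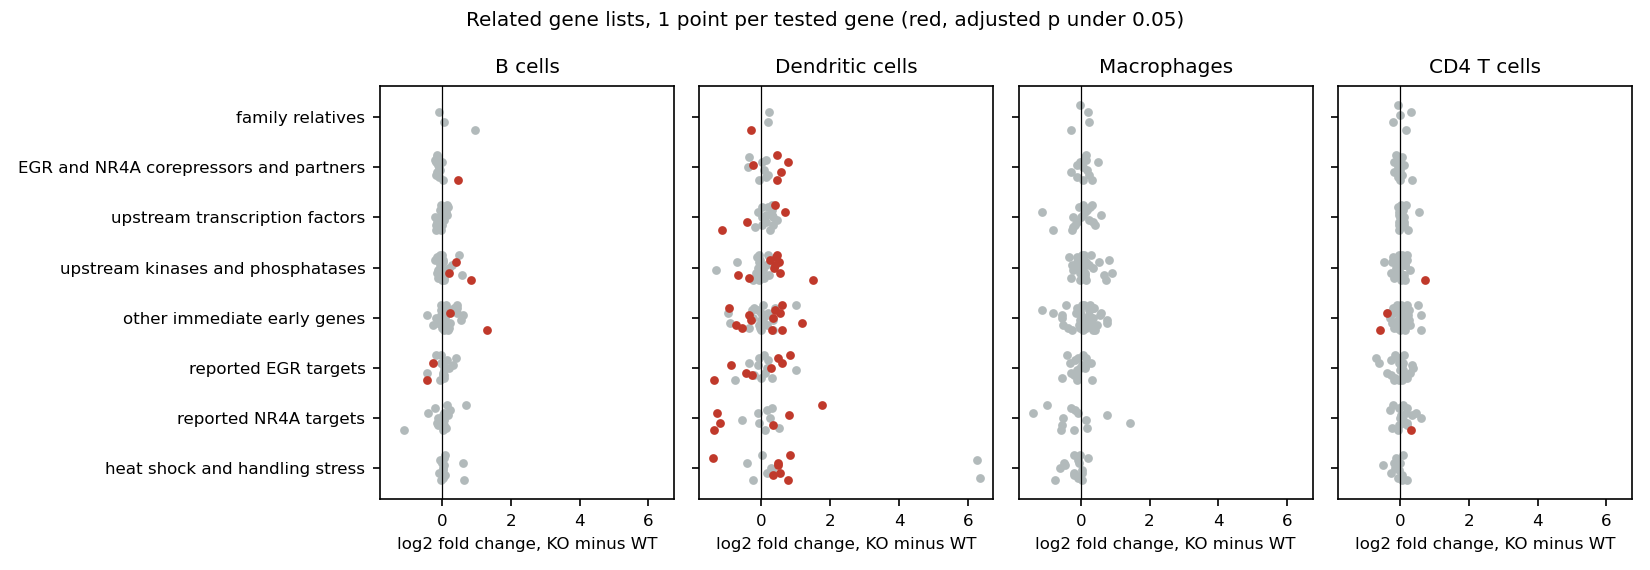
KO effect on the genes of 8 related lists, with 1 point per tested gene at its log2 fold change (KO minus WT) on the x axis and red where the edgeR adjusted p was under 0.05. Red points lie on both sides of 0 in dendritic cells for every list with more than 1 call, and the 2 gray points far to the right are Hspa1b and Hspa1a, at 6.36 and 6.27.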

How the data were processed

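Messenger RNA was measured by RNA sequencing (TruSeq libraries, paired reads of 50 bases, per the labels' protocols) in 24 libraries, grouped by the sample titles. The authors deposited 1 file per library with raw counts, whole numbers of reads assigned to the coding sequence of each gene symbol. Adapter trimming software cutadapt, the aligner STAR and build mm9 are named, without versions, in the submitters' processing notes. No source used here gives the counting tool or the use of strand, and no annotated gene overlaps any of the 7 genes in GENCODE M21. Reads outside any counted feature, 51.4 to 61.1% of each library, entered neither library sizes nor tests.

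KO was compared with WT in each cell type by edgeR 4.0.16 in R 4.3.3 (TMM, filterByExpr, robust quasi-likelihood F test, Benjamini-Hochberg adjustment over all genes tested, called at an adjusted p under 0.05, two-sided, with no minimum fold). Cell types and differences of KO effects were tested in 1 fit of 24 libraries with 8 group means. SE was taken as |log2 fold change| over the root of F. CPM uses the TMM factors of that fit. The scripts were tested on simulated data. Alternatives were DESeq2 1.42.0, its size factors, upper quartile factors, other filters, a replicate block, the fit of all 24 libraries and leaving out each library.

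The 7 genes and all lists were chosen with earlier results of these data known. The genes named from a list are at most 2 called members with the smallest p per list and cell type, and those of likest pattern are 2 per member, with predicted genes (Gm or Rik names) left out.

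By the sample titles, KO and WT libraries carry the same replicate numbers. For WT B cells the deposited names carry other numbers than the titles, which were used here, so the B cell numbering is uncertain. Deviations of same-numbered libraries from their group means correlated over genes at 0.12, 0.30 and 0.39 in macrophages, so there the numbers were taken to pair the libraries. The main macrophage test still had no replicate block, and the fit with the block is given beside it as an alternative. In the other cell types at least 1 pair was below 0.1, and the numbers were not taken to pair the libraries. In B cells the values were 0.18, 0.03 and 0.22, which leaves pairing there unsettled. Every pair of libraries within a group differed by more than counting noise (chi-square per gene of 2.08 or more over genes with at least 20 counts). WT macrophage pairs differed by far the most, at 39.2, 65.8 and 161. WT dendritic cell pairs were at 15.9, 11.3 and 5.38, and KO macrophage pairs at 4.54, 12.4 and 11.8. The highest value in B and T cells was 6.62.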

Additional observations from a re-analysis of the deposited data

Results flagged for a closer look

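The KO effect on 4 genes differed between the 4 cell types when the difference itself was tested in the fit of all 24 libraries. For Nr4a3 (adjusted p = 0.0018) the log2 KO effect was 1.26 in dendritic cells and -0.12 in T cells. For Nr4a2 (adjusted p = 0.0021) it was 0.84 in dendritic cells, -0.35 in macrophages and -0.19 in T cells. For Egr2 (adjusted p = 0.010) it was 0.70 in macrophages, -0.26 in B cells and -0.19 in T cells. The macrophage effect alone was not called in the main edgeR test, which had no replicate block, and was called with that block and by DESeq2. For Egr3 (adjusted p = 0.035) the difference came with 19 reads in KO and 3 reads in WT dendritic cells, too few to pass the filter in those cells alone.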

How the results depend on the processing

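Of 288 alternative values of single KO effects on the 7 genes, 258 kept direction and side of the threshold, 8 passed it, 8 lost it and 14 changed sign. Of 1301 for WT cell type pairs, 1262 kept both, 5 passed, 32 lost it and 2 changed sign. In the fit of all 24 libraries, members called were 0 in B cells (1 in the separate fit), 4 in dendritic cells (2, joined by Nr4a1 and Egr3), 1 in macrophages (0) and 0 in T cells (1). Egr3 was not tested in the separate dendritic cell fit. DESeq2 and the replicate block each called 1 in macrophages. With each library left out in turn, B cells had 0 to 1 members called, dendritic cells 1 to 2, macrophages 0 to 1 and T cells 0 to 3, where the 3 came without WT replicate 1. Summed over the 4 cell types, DESeq2 called 0 family relatives (1 by edgeR) and 11 heat shock entries (7 by edgeR). Of these heat shock calls, DESeq2 made 8 in dendritic cells, 2 in macrophages and 1 in T cells, and edgeR made all 7 in dendritic cells. The sign changed for Egr1 in dendritic cells under the replicate block (0.023), and in KO for Egr3 between dendritic cells and macrophages (0.95) and Nr4a1 between dendritic and B cells (0.13). Leaving out 1 library gave log2 KO effects of -0.29 to 0.026 for Egr3, -0.080 to 0.13 for Nr4a1 and -0.020 to 0.19 for Ier2 in B cells, -0.33 to 0.43 for Egr1 and -0.13 to 0.42 for Egr2 in dendritic cells, -0.052 to 0.35 for Nr4a1 in macrophages, and -0.084 to 0.040 for Nr4a1 and -0.24 to 0.045 for Nr4a3 in T cells. Apart from the macrophage call of Egr2, the replicate block changed no call of a member between KO and WT. In B cells, where pairing by number was not settled, the block moved the count of all genes called to 1260, against 325 without it. In macrophages 265 genes were called with the block and 95 without it. The macrophage count was 547 by DESeq2, 1755 in the fit of all libraries, 0 when KO replicate 1, WT replicate 1 or KO replicate 2 was left out, and 2746 without WT replicate 3. Without that library the KO effect of 3619 genes differed between cell types, against 1548 with it. The count was 501 in B cells and 478 in T cells (223) with no low-count filter, and 81 and 63 in the fit of all libraries. With each library left out in turn it ran from 141 to 441 in B cells, for dendritic cells (2279) from 1176 to 2870, and for T cells from 32 to 598. The causes were not tested. Depth limits the EGR genes in dendritic cells, Nr4a2 in B cells and Egr3, Nr4a2 and Nr4a3 in macrophages, each with at least 1 library under 20 reads.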
